A study of Mus musculus with 6 samples.

Results

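The mitochondrial ribosomal protein genes are the nuclear genes that encode the proteins of the ribosome inside mitochondria. They were taken as all genes whose symbol in the array's platform annotation starts with Mrpl or Mrps followed by a digit. Only sets of probes annotated to 1 gene were used, and a gene with several sets was read from the one with the highest mean over the 6 arrays. This gave 76 of the 18193 genes measured, 47 named for the large subunit (Mrpl) and 29 for the small subunit (Mrps). Mrpl30 and Mrpl53 were listed only with a second gene and were left out. Expression was measured on 3' expression arrays in isolated islets (the endocrine part of the pancreas, rich in insulin-secreting beta cells) of male CD1 mice aged 8 weeks. After a night in culture medium the islets were kept for 24 hours with ethanol vehicle (vehicle group, 3 arrays) or with 200 uM CMPF (CMPF group, 3 arrays), so that all islets had been cultured and the vehicle group was no untreated tissue. CMPF is a circulating metabolite of the furan fatty acids, and the series asks about genes of metabolism. Within each group the labels number the arrays 1 to 3, and arrays of the same number are called a pair below. Separate animals or preparations behind these numbers are not named in the labels. The p-values below therefore measure only how far these arrays differ, and part of that spread may be technical.

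The mitochondrial ribosome makes the small set of proteins encoded by mitochondrial DNA, all of them parts of the respiratory chain and the ATP synthase. Its RNAs come from the mitochondrial genome, whereas its proteins are made in the cytosol and imported. Some of these proteins have a counterpart in bacterial ribosomes, and others exist only in mitochondria. In beta cells, respiration links glucose to insulin release, so that the supply of these subunits matters for the cells' main function.

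None of the 76 genes differed between CMPF and vehicle islets at the threshold of the test. All differences below are CMPF minus vehicle in log2 units. They ran from -0.13 to 0.13, or from 0.913-fold to 1.09-fold, and the median over all members was 0.0065, beside 0.0018 over all 18193 genes. The difference was above 0 for 43 members (56.6%, with 50.7% of all genes) and below 0 for 33 (49.3% of all genes). It lay within 0.2 of 0 for all 76 members and for 92% of all genes. Limma's test with Benjamini-Hochberg adjustment over all genes called 0 members (smallest adjusted p = 0.999952) and 0 genes in all, which is 0% of genes. Without adjustment, 205 genes (1.13%) had a limma p under 0.05, and 0 of them were members. With the replicate number as a block, 0 members and 0 genes (0%) passed, and 0 members had an unadjusted p under 0.05 where 3.8% of all genes did. The 95% interval of the difference included 0 for each of the 76 members. It also lay within a 1.5-fold change in either direction for all 76, with the outermost bounds at -0.52 and 0.50. On these arrays a larger mean change of any single member was therefore outside its interval, which is not adjusted for the number of genes.

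**Figure D1:**
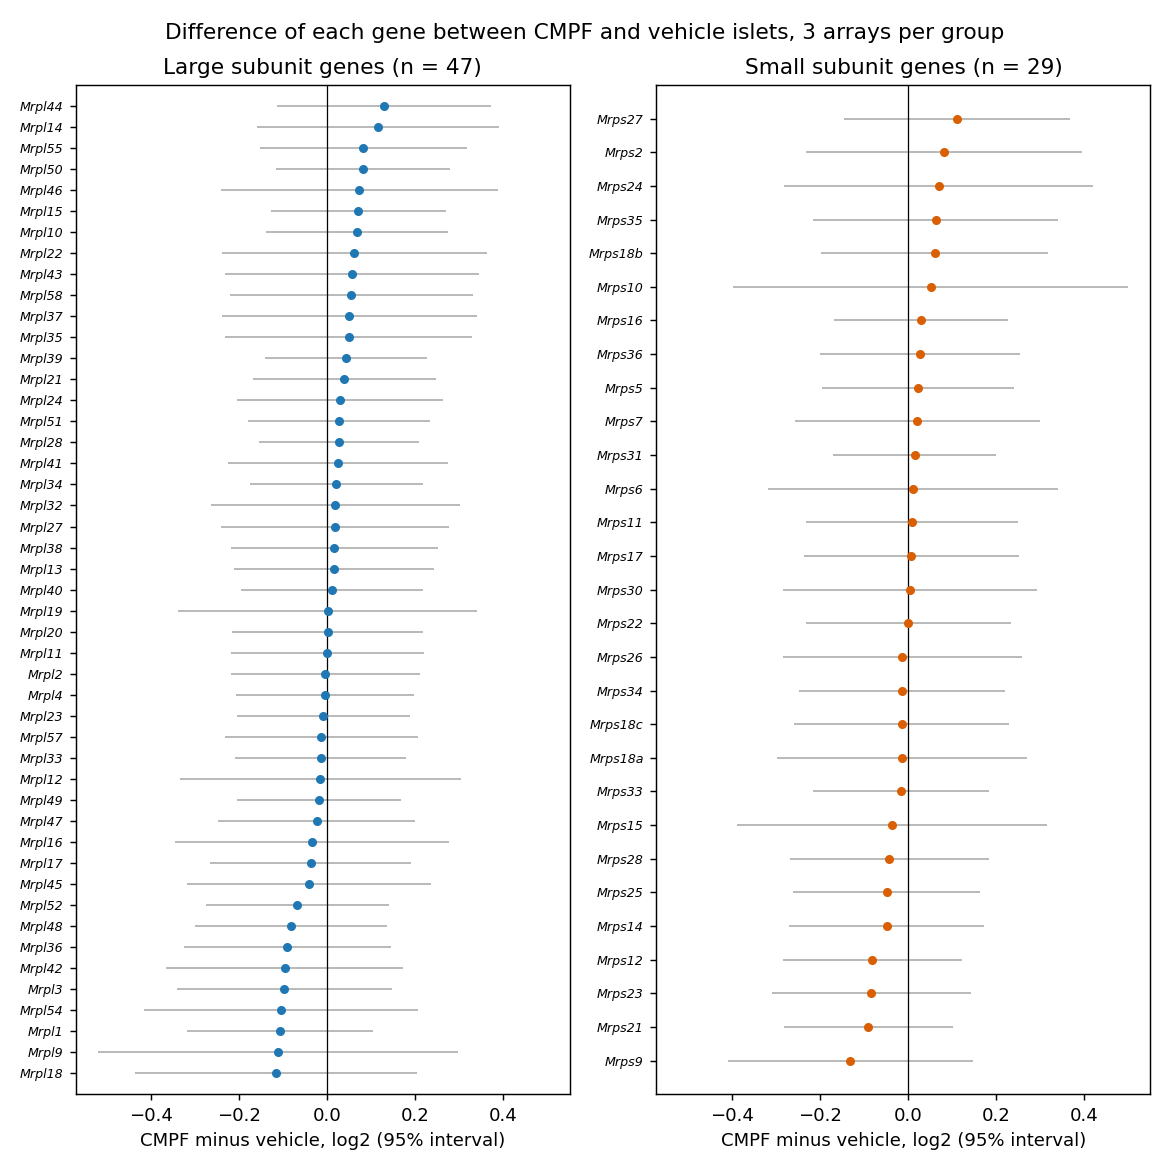
Difference between CMPF and vehicle islets for each large subunit gene (left, n = 47) and small subunit gene (right, n = 29), in log2 units on the horizontal axis, with points for the limma estimate and lines for its 95% interval over 3 arrays per group. The estimates run from -0.13 to 0.13 and all 76 intervals include 0.

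The 2 subunits had close medians. The median difference was 0.01 for the 47 large subunit members and 0.0055 for the 29 small subunit members, and their distance of 0.0050 was smaller than its SD of 0.042 over the 3 pairs. Higher values with CMPF were seen for 27 large and 16 small subunit members. Members with a bacterial counterpart (47 genes) had a median of 0.0013, and those found only in mitochondria (29 genes) a median of 0.01. The pair medians of all members were -0.04, 0.02 and 0.03, which is a spread of 0.040 (SD, n = 3) around a median near 0. Symbols do not always give the subunit, since the products of Mrps30 and Mrps18a sit in the large subunit and that of Mrps36 belongs to the 2-oxoglutarate dehydrogenase complex. With these genes placed by structure, the distance between the subunit medians was 0.0013.

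Counts by pair gave the same picture. In all 3 pairs 9 of 76 members were higher with CMPF, a share of 11.8%, and 11.8% of all genes were. In all 3 pairs 5 of 76 were lower, a share of 6.58%, where 11.1% of all genes were. Those higher were Mrpl15, Mrpl22, Mrpl28, Mrpl44, Mrpl55, Mrps2, Mrps18b, Mrps24 and Mrps35, and those lower were Mrpl3, Mrpl42, Mrps9, Mrps12 and Mrps21. The groups did not overlap for 1 of 76 members (4.52% of all genes in either direction). The values of the CMPF group all lay below those of the vehicle group for 1 member, Mrps21 (2.11% of all genes), and all above for 0 members (2.41% of all genes). The counts of pairs depended on the scaling: with each array's median subtracted they were 5 higher (6.58%, with 9.02% of all genes) and 9 lower (11.8%, with 14.6% of all genes).

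Most members varied together between arrays, as described further on, so their promoters were read for letters bound by factors known to drive nuclear genes of mitochondria. NRF1, GABPA and YY1 are such factors. The letters searched were written from general knowledge of what each binds and not taken from a motif table, so the counts hold for these letters only. In RefSeq's sequences (GRCm38.p6), 67 of 76 members had an entry, and the 250 bases before each start were searched on both strands. The NRF1 letters, GCGCA and GCGC with any 1 base between them, were found for 9 of 67 members (13.4%) and 4.23% of all genes in that table. CCGGAAGT (GABPA) was found for 10 members (14.9%) and 3.23% of genes, and AAGATGGC (YY1) for 4 members (5.97%) and 1.83% of genes. At least 1 of the 3 stood before 22 members (32.8%), and before 8.74% of all genes. NRF1 letters stood before 8 of 41 large subunit genes and 1 of 26 small subunit genes. The TATA box letters TATAAA, which mark another promoter class, were found for 7.46% of members and 14.3% of genes. Matches of different motifs overlapped in 0 member promoters, and a match is a description of the sequence and no measured binding. The shares of all genes were not matched to the members for base content or level. Whether a match goes with the variation between arrays was not tested. Stretches before the start of 7 genes are shown 5′ to 3′ on the gene's strand because the values that follow turn on these genes or their roles, with the matched letters, or their reverse complement, in capitals.
Mrpl44 (NRF1, chr1:79775968-79776007, plus strand): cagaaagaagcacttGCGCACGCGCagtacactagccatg
Mrpl12 (NRF1, chr11:120484541-120484580, plus strand): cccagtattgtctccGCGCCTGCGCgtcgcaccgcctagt
Mrpl9 (NRF1, chr3:94443293-94443332, plus strand): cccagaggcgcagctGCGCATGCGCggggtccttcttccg
Mrps21 (NRF1, chr3:95871581-95871620, minus strand): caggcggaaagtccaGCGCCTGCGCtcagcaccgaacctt
Mrpl27 (GABPA, chr11:94653721-94653758, plus strand): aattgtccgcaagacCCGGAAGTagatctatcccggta
Mrps27 (GABPA, chr13:99344722-99344759, plus strand): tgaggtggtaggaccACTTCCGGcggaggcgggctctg
Mrpl36 (YY1, chr13:73330964-73331001, plus strand): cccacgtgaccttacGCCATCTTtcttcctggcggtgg

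Among large subunit genes, Mrpl44 had the largest difference and the smallest p. Its product has the fold of a double-stranded RNA nuclease. Mrpl44 read 8.61, 8.73 and 8.59 on the vehicle arrays 1 to 3 and 8.83, 8.88 and 8.61 on the CMPF arrays. The CMPF arrays 1 and 2 lay above all vehicle arrays, while CMPF 3 lay within their range. The difference was 0.13 (SE 0.103, limma adjusted p = 0.999952). Mrpl1, which forms the mobile stalk beside the tRNA exit site, read 7.97, 8.07 and 7.95 with vehicle and 7.79, 7.90 and 7.98 with CMPF. Here CMPF 1 and 2 lay below the vehicle arrays and CMPF 3 did not, and the difference was -0.11 (SE 0.0902). Mrpl14, a protein of the face that meets the small subunit, differed by 0.12 (SE 0.117), of which pair 2 gave 0.34 and pairs 1 and 3 gave 0.01 and -0.0051. Mrpl50 differed by 0.08 (SE 0.0842) and Mrpl3, a core protein with a bacterial counterpart, by -0.10 (SE 0.104). Mrpl36, one of the shortest ribosomal proteins, differed by -0.09 (SE 0.100), with pair values of -0.17, -0.17 and 0.07.

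Factor-binding and catalytic parts of the large subunit were read by several genes. Mrpl10 and Mrpl12 form the stalk that recruits translation factors, and Mrpl11 sits at its base. Mrpl12 read 8.94, 9.20 and 8.77 with vehicle and 8.87, 9.14 and 8.86 with CMPF, a mean of 8.97 ± 0.21 (SD, n = 3) against 8.96 ± 0.16 (SD, n = 3). The groups overlapped almost fully, and the array numbered 2 was the highest in each. Mrpl10 differed by 0.07 (SE 0.0885) and Mrpl11 by 0.00053 (SE 0.0933). Mrpl16 and Mrpl27, which lie near the peptidyl transferase centre, differed by -0.03 (SE 0.133) and 0.02 (SE 0.111). Mrpl58, a peptidyl-tRNA hydrolase built into the ribosome, differed by 0.05 (SE 0.118). Mrpl32, which a mitochondrial protease must cut before the subunit can be assembled, differed by 0.02 (SE 0.121).

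The central protuberance, the contact of the large subunit with the head of the small one, was represented by Mrpl38 and Mrpl40. They differed by 0.02 (SE 0.100) and 0.01 (SE 0.0881). At the exit of the nascent protein, Mrpl22 differed by 0.06 (SE 0.128) and Mrpl47 by -0.02 (SE 0.0956). Mrpl37, Mrpl41 and Mrpl55 lay at 0.05, 0.03 and 0.08 (SE 0.124, 0.107 and 0.100). On the probe set used, Mrpl28 had the narrowest spread within groups of all members: it read 9.16, 9.19 and 9.15 with vehicle and 9.22, 9.20 and 9.15 with CMPF. The difference on this set was 0.03 (SE 0.0779), positive in each pair but as little as 0.0031 in pair 3. Another Mrpl28 set, at a mean of 8.94, varied more. It read 8.94, 9.04 and 8.78 with vehicle and 8.97, 9.12 and 8.81 with CMPF, highest on array 2 of each group. Mrpl15 was also positive in each pair, at 0.06, 0.10 and 0.05, and differed by 0.07 (SE 0.0847). Both Mrpl15 and Mrpl28 were read from probe sets of the class that may bind other transcripts.

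In the small subunit the largest difference belonged to Mrps9, a protein of the subunit's head. Mrps9 read 7.82, 8.02 and 7.89 with vehicle and 7.58, 7.95 and 7.81 with CMPF. Each CMPF array lay below the vehicle array of its number, but the groups overlapped, and the difference was -0.13 (SE 0.118, limma adjusted p = 0.999952). Mrps21 read 9.96, 10.05 and 9.96 with vehicle and 9.84, 9.92 and 9.93 with CMPF. It was the member without overlap, and the gap between the lowest vehicle and the highest CMPF array was small beside the spread within each group. Its difference was -0.09 (SE 0.0820). Mrps12, the protein of the decoding centre at which aminoglycoside antibiotics act in bacteria, read 10.41, 10.30 and 10.35 with vehicle and 10.36, 10.23 and 10.22 with CMPF. It was lower in each pair, with overlap between the groups, and differed by -0.08 (SE 0.0869).

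The other genes named for the small subunit lay closer to 0 or varied more. Mrps27, an RNA-binding repeat protein, had a difference of 0.11 (SE 0.110), with -0.11 in pair 1 and 0.28 and 0.16 in pairs 2 and 3. It was the only member below the median level of all genes, 6.42. Mrps23 differed by -0.08 (SE 0.0966), Mrps2 by 0.08 (SE 0.134), Mrps35 by 0.06 (SE 0.119) and Mrps24 by 0.07 (SE 0.150). Mrps5 and Mrps7, which line the path of the messenger RNA, differed by 0.02 (SE 0.0932) and 0.02 (SE 0.119). Mrps6, Mrps14, Mrps16 and Mrps28 lay between -0.05 and 0.03. Mrps22 and Mrps34, both known from inherited disorders of mitochondrial translation, differed by 0.00088 (SE 0.0995) and -0.01 (SE 0.0998). The 3 genes related to the bacterial S18 protein lay close together, at -0.01 for Mrps18a (SE 0.121), 0.06 for Mrps18b (SE 0.110) and -0.01 for Mrps18c (SE 0.104). Mrps30 and Mrps36 lay at 0.0055 (SE 0.123) and 0.03 (SE 0.0967).

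Most members varied together between replicate numbers. On vehicle 2, 66 of 76 members read above their own mean over the 6 arrays (47% of all genes), and on CMPF 2 again 66 of 76 did (51.1% of all genes). The median deviation of the members from their own mean was -0.02, 0.09 and -0.07 on the vehicle arrays 1 to 3 and -0.05, 0.11 and -0.03 on the CMPF arrays. Both arrays numbered 2 were thus high, and the other 4 were low. On vehicle 3 only 14 of 76 members (50.6% of all genes) and on CMPF 3 only 23 of 76 (46.3%) read above their own mean. With the vehicle and CMPF array of a number averaged, 64 of 76 members (84.2%) were highest in number 2, as were 34.1% of all genes and 42.5% of the genes above the median level. With members placed by symbol, it was 41 of 47 large subunit members (87.2%) and 23 of 29 small subunit members (79.3%). By origin it was 43 of 47 members with a bacterial counterpart (91.5%) and 21 of 29 found only in mitochondria (72.4%), and neither difference was tested. Genes that work with the ribosome were also often highest in number 2, with 3 of 4 subunits without an Mrp symbol, 7 of 11 translation factors (63.6%) and 12 of 19 genes of mitochondrial DNA transcription (63.2%). The shares were 52.6% for tRNA charging, 51.9% for assembly, 44.4% for complex I, 40.5% for cytosolic ribosomal proteins and 38.1% for complexes III and IV and the ATP synthase. Within the vehicle group alone 59 of 76 members were highest on array 2 (34.6% of all genes), and within the CMPF group alone 59 of 76 were (34.8% of all genes). The choice of number 2 was made after its values were seen, so these counts describe the arrays and are no test.

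**Figure D2:**
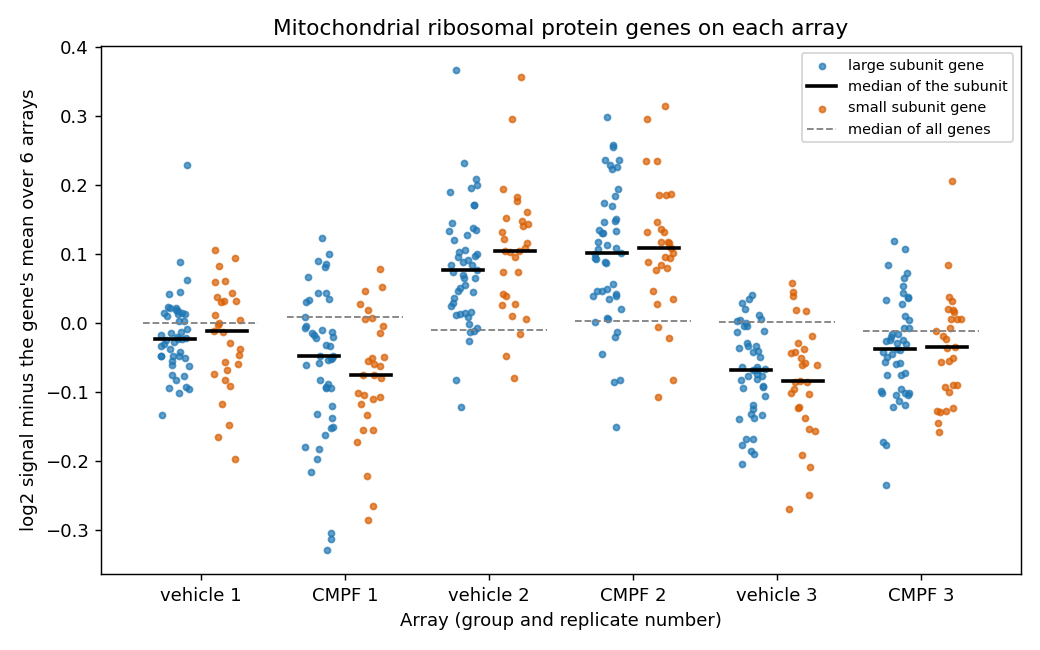
Log2 signal of each of the 76 genes minus its own mean over the 6 arrays, by array, with blue points for large and orange points for small subunit genes, black bars for subunit medians and dashed lines for the median of all genes. Both arrays numbered 2 sit above the others for both subunits, with medians of all members of 0.09 (vehicle) and 0.11 (CMPF).

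Number 2 exceeded the mean of numbers 1 and 3 by a median of 0.14 log2 units over the members, and by -0.01 over all genes and 0.03 over genes above the median level. Mrps10, a protein of the small subunit's head, showed it most, with 8.59, 9.12 and 8.49 on the vehicle arrays and 8.69, 9.06 and 8.62 on the CMPF arrays. Number 2 was higher by 0.49, whereas CMPF and vehicle differed by 0.05 (SE 0.191). Mrpl9 read 8.20, 8.59 and 8.05 with vehicle and 7.91, 8.37 and 8.22 with CMPF, and Mrps15 read 8.88, 9.32 and 8.93 with vehicle and 8.80, 9.16 and 9.06 with CMPF. With Mrps10 they had the widest spread within groups of all members, and number 2 was the highest in each group. The CMPF difference was -0.11 for Mrpl9 (SE 0.174) and -0.04 for Mrps15 (SE 0.150). Mrpl42 ran the other way: it read 10.07, 9.72 and 9.88 with vehicle and 9.89, 9.69 and 9.81 with CMPF, lowest on both arrays numbered 2. Both arrays numbered 2 lay above the other 4 for 44 of 76 members (16.1% of all genes), and below them for 1 (14.3% of all genes).

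**Figure D3:**
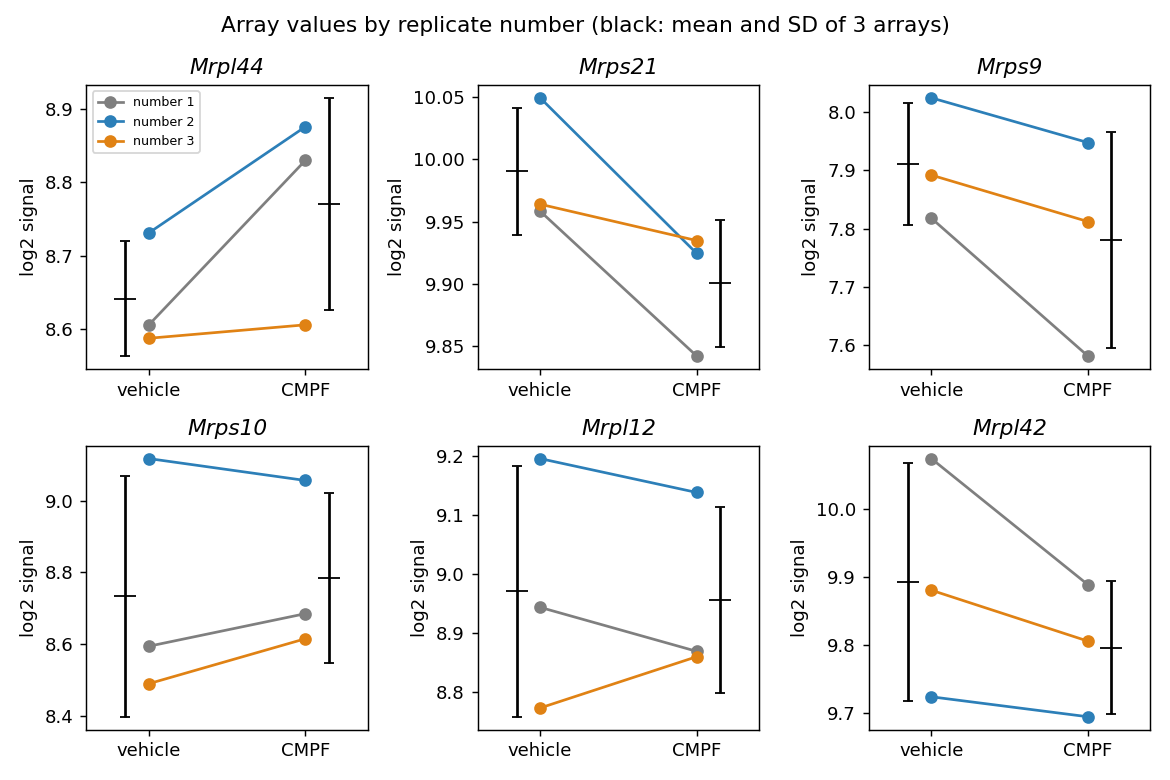
Log2 signal of 6 genes on the vehicle and CMPF arrays, with lines joining arrays of the same replicate number and black marks for the mean and SD of 3 arrays. Replicate 2 is highest on both arrays for Mrps9, Mrps10 and Mrpl12 and lowest for Mrpl42, and for Mrps21 the groups do not overlap.

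A test of the replicate numbers across all genes was added after the pattern was seen (limma's F test of the number in the fit with the block). It called 0 of 76 members after Benjamini-Hochberg adjustment over all genes, where it called 481 genes (2.64%). The smallest adjusted p of a member was 0.0732, for Mrps10. Unadjusted, 10 members (13.2%) had an F test p under 0.05, a smaller share than the 21.8% of all genes. Their 2850 gene pairs had a median Pearson correlation of 0.53 over the 6 arrays, and 81.6% of pairs correlated above 0. Over all pairs of genes the median was 0.0013, and over pairs of genes above the median level it was 0.04. Cytosolic ribosomal protein genes had a median of 0.32 and genes of respiratory complex I one of 0.09. These correlations rest on the same 6 arrays, in which pairs share a number, and are given as a description.

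**Figure D4:**
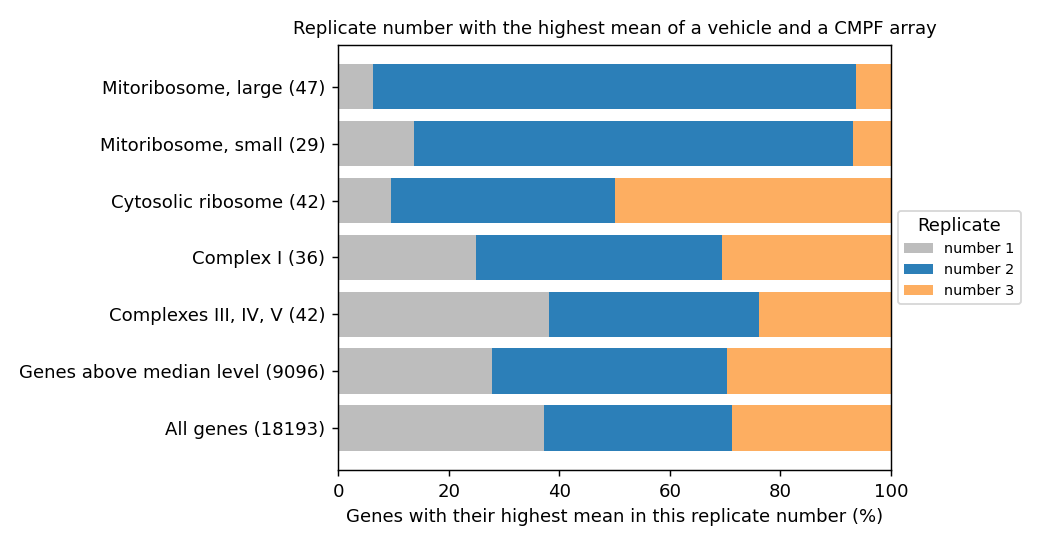
Share of genes, in percent, whose mean of the vehicle and CMPF array is highest in replicate number 1, 2 or 3, for the subunits of the mitochondrial ribosome, other gene groups and all genes (number of genes in brackets). Number 2 is highest for 41 of 47 large and 23 of 29 small subunit genes, and for 34.1% of all genes.

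Markers of other pancreatic cell types also varied by array. The mean log2 signal of 18 measured acinar markers (of 21 listed), which come from the enzyme-secreting exocrine tissue, had values of 11.14, 12.02 and 10.27 on the vehicle arrays, against 11.40, 12.07 and 11.11 on the CMPF arrays. It was thus highest on both arrays numbered 2, as the mitochondrial ribosomal genes were, and lowest on vehicle 3. It was also higher with CMPF in each pair. Of the 18 markers, 13 were higher in all 3 pairs (11.8% of all genes) and 1 was lower (11.1% of all genes). The mean of 10 beta cell markers (of 13 listed) stood at 11.58, 11.19 and 11.33 on the vehicle arrays and at 11.66, 11.15 and 11.13 on the CMPF arrays. The 9 measured duct markers (of 11 listed) ranged from 8.90 to 9.70 over vehicle arrays and from 8.99 to 9.73 over CMPF arrays. Their mean was also highest on both arrays numbered 2, but not every duct marker was. Krt7 was lowest on both, Tspan8 was highest on array 3 of each group, and Epcam was highest on vehicle 2 and CMPF 3. The mean of 3 delta cell markers, another endocrine type, was highest there too, at 11.16 on vehicle 2 and 11.14 on CMPF 2. It reached at most 11.125 on the other vehicle arrays and 11.07 on the other CMPF arrays. The 3 markers did not agree, since Hhex was highest on array 2 of each group and Sst was lowest there. Sst read 13.96, 13.75 and 13.87 with vehicle and 13.89, 13.83 and 13.87 with CMPF. Rbp4 was highest on vehicle 2 and on CMPF 3. The mean of 3 alpha cell markers (of 5 listed) was highest on vehicle 2 (11.63) and on CMPF 3 (11.59). Means of 13 endothelial markers reached 6.39 and 6.64 at most in the groups; those of 12 stellate and fibroblast markers ran from 8.43 to 8.95 and from 8.03 to 9.21, and those of 11 macrophage markers from 6.51 to 6.74 and from 6.53 to 6.77. The arrays carry no detection call, so markers at a true 0 could not be named. The part of these cell types in the members' values was not tested. In islets measured in bulk, fewer cells of a type and less RNA per cell cannot be told apart.

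**Figure D5:**
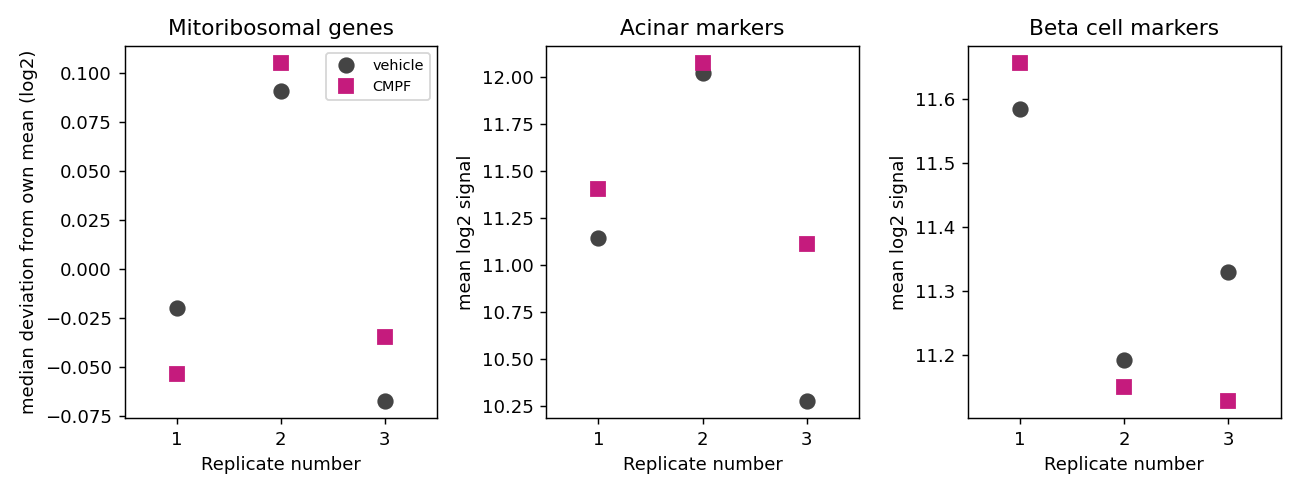
Median deviation of the 76 mitochondrial ribosomal genes (left), and mean log2 signal of 18 acinar (middle) and 10 beta cell markers (right), by replicate number, with circles for vehicle and squares for CMPF arrays. The first 2 panels are highest at number 2, and beta cell markers are highest at number 1.

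The genes of NRF1, GABPA and YY1, looked up for the motifs given above, did not pass the threshold either. Nrf1 read 6.58, 6.43 and 6.65 with vehicle and 6.72, 6.40 and 6.73 with CMPF, lowest on both arrays numbered 2. Gabpa read 8.37, 8.51 and 8.38 with vehicle and 8.21, 8.58 and 8.54 with CMPF, and was highest on array 2 of each group. Yy1 differed by -0.07 (SE 0.125) and was highest on array 3 of each group.

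Different probe sets of a gene did not give 1 direction. The 76 members had 156 single-gene probe sets in all, and 34 members had 1 each. Of the other 80 probe sets, 43 had a CMPF difference of the same sign as the one used. Among the 36 of them above the median level of all genes, 18 did. Mrpl44 was read by 3 further sets, with differences of -0.07, 0.12 and 0.07 (SE 0.0887, 0.107 and 0.111), so that the direction of its 0.13 was not shared by all. For Mrps9 the 3 further sets gave 0.14, 0.09 and 0.12 (SE 0.101, 0.0908 and 0.121), each opposite in sign to the -0.13 of the set used. Mrps21 had 1 further set, dim at 3.21, with a difference of -0.09 (SE 0.124).

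Genes that work with the mitochondrial ribosome were also without a call, with 0 of them past the threshold in either direction. The counts by pair below are to be read against 11.8% of all genes higher and 11.1% lower in all 3 pairs. The 4 measured subunits without an Mrp symbol, Chchd1, Gadd45gip1, Dap3 and Ptcd3, differed by 0.05, 0.05, 0.01 and 0.0025. Of 11 translation factors, 4 (36.4%) were higher and 0 lower in all 3 pairs, and their median was 0.02. Among the 11, the largest difference was that of Gfm2, a ribosome recycling factor, at 0.15 (SE 0.102). Mtfmt, which was lower in pair 3, and Mtrf1l lay at 0.12 and 0.07 (SE 0.115 and 0.0879). Of 19 genes for charging mitochondrial tRNAs, 6 (31.6%) were higher and 0 lower in all 3 pairs, with a median of 0.06. Wars2, the tryptophan enzyme, read 4.96, 4.88 and 4.77 with vehicle and 5.01, 5.07 and 5.14 with CMPF, without overlap (2.41% of all genes in this direction), and differed by 0.20 (SE 0.0908, limma adjusted p = 0.999952). Tars2 and Sars2, the threonine and serine enzymes, differed by 0.22 (SE 0.101) and 0.22 (SE 0.113). Of these, Wars2 and Sars2 were dim, under the level of the median gene.

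Among 27 assembly and rRNA modification genes, each pair agreed on a higher value for 2 (7.41%) and on a lower value for 4 (14.8%), and the median was -0.03. Trmt61b, a methyltransferase, read 7.30, 7.27 and 7.30 with vehicle and 7.12, 7.07 and 7.17 with CMPF. The groups did not overlap (2.11% of all genes in this direction), and the difference was -0.17 (SE 0.0790, limma adjusted p = 0.999952). Grsf1, an RNA-binding protein of mitochondrial RNA granules, and Mrm1, a ribose methyltransferase, differed by -0.19 (SE 0.136) and -0.08 (SE 0.0779). For Mrm1 the CMPF arrays also all lay below the vehicle arrays, so that 2 of the 27 genes were without overlap in this direction. For mitochondrial DNA transcription and its nuclear regulators the median over 19 genes was -0.02, with 0 higher and 1 lower in all 3 pairs. That gene was Tfam, which packages and transcribes mitochondrial DNA, at -0.16 (SE 0.105), also with no overlap between the groups. Gabpb1 and Polg differed by 0.09 (SE 0.0909) and -0.09 (SE 0.0969).

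Set beside the machines they supply or resemble, the members stood near 0. The median difference was -0.02 for 42 cytosolic ribosomal protein genes, with 4 higher and 9 lower in all 3 pairs. It was -0.01 for 42 genes of complexes III and IV and the ATP synthase, with 4 higher and 5 lower. For 36 complex I genes it was -0.03, with 0 higher and 15 lower in all 3 pairs (41.7%), where 11.1% of all genes and 6.58% of the mitochondrial ribosomal genes were lower. With each array's median subtracted, the last share was 11.8%. All of these lists share the same 6 arrays, the difference between lists was not tested, and 0 of their genes passed limma's adjusted threshold.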

How the data were processed

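The deposited values are log2 probe set signals that the authors obtained by RMA; the submitters' processing notes name the program as Affymetrix Expression Console 1.1. RMA corrects background, gives all arrays 1 distribution and summarises probes, so it removes differences in total signal and compresses those of dim genes. The number of arrays limits the precision. Of 45101 probe sets, 64 controls were left out, and 34945 had 1 gene, 932 several and 9160 none. Names come from the platform annotation, and 34741 of the single-gene sets matched a RefSeq table (GRCm38.p6) by Entrez ID. CMPF was compared with vehicle by a two-sided test with lmFit and eBayes (R 4.3.3, limma 3.58.1), without a filter, Benjamini-Hochberg adjusted over 18193 genes at 0.05. Intervals are 95%. The test was checked on simulated data. The members and lists were chosen with earlier results of these data known. The text names the 6 members of each subunit with the smallest p, those moved the same way in all 3 pairs, 30 fixed by name, the 3 with the widest spread within groups and the 3 genes with the smallest p of each companion list of the ribosome's assembly, use and transcription. Other genes were chosen after their values were seen.

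The pairing by number rests on the data and not on the labels: deviations from group means correlated at 0.538, 0.638 and 0.488 for same-numbered arrays, and between -0.555 and 0.0885 for others. Over the members alone the same-numbered values were 0.600, 0.585 and 0.392. The fit with the replicate block was run beside the main one. The 6 arrays correlated across genes at 0.989 or more, and 0 held identical values.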

Additional observations from a re-analysis of the deposited data

How the results depend on the processing

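Under each alternative run, 0 genes and 0 members passed the threshold with limma, the replicate block included, and the block changed no call (smallest adjusted p with the block 0.979). At an unadjusted p under 0.05 the main fit had 205 genes and the block 692, with 0 members in either. The median difference of all members, 0.0065, was -0.02 with median centring and 0.02 with a second quantile normalization or array weights, within its SD over pairs of 0.040. Leaving out 1 array or 1 pair moved it between -0.046 (without CMPF 2) and 0.048 (without vehicle 2), the large subunit median between -0.043 and 0.045, the small subunit median between -0.059 and 0.053, and their distance between -0.018 and 0.024. Members lower in all 3 pairs were 8 with probe set means (11.1% of all genes) and 9 with median centring (14.6% of all genes) in place of 5, and those higher were 5 with median centring (9.02% of all genes) in place of 9. Members without overlap, 1 in the main setting, were 3 with probe set means (3.95%, with 4.88% of all genes), 2 with median centring (2.63%, with 5.32%), 4 with a second quantile normalization (5.26%, with 4.70%) and 2 (2.63%, with 9.72% without vehicle 1 and 12.5% without vehicle 3) to 13 (17.1%, with 22.4% without replicate 2) with fewer arrays. Counts over 3 pairs could not be made with an array left out. Of the 47 named members, 14 kept the sign of their difference under all 17 settings. The count of members highest in number 2, an addition made after seeing the data, was 64 and ran from 48 (63.2%, with 31.5% of all genes) with a second quantile normalization to 68 (89.5%, with 39.4% of all genes) with median centring.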
